A study of Mus musculus with 6 samples.

Results

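Complement components and regulators were examined as a set of 9 genes, C1ra, C1s1, C4b, C2, C3, Cfb, Cfd, Cfp and Serping1, in RNA-Seq libraries of mouse uterine stromal cells with and without Pbrm1. The genes were taken by their GENCODE symbols from the 54232 genes of the count table. No value entered this rule, but the list was chosen with earlier results of these data known. The C1q subunits were kept apart because they mark macrophages. All 9 genes had at least 1 count in some library.

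Complement is a cascade of secreted proteins that tags surfaces for removal. In the classical and lectin pathways, proteases cleave C4 and C2 to build an enzyme that splits C3, and in the alternative pathway C3 itself, factor B, factor D and properdin form an amplifying loop. Regulators hold these steps in check, among them the C1 inhibitor encoded by Serping1, and in the rodent uterus C3 is known as an estrogen-responsive product of the epithelium.

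The question was how loss of the SWI/SNF protein PBRM1, which takes part in chromatin remodeling, changes transcripts of stromal cells at the time of uterine receptivity. The WT and Pbrm1 cKO groups had 3 libraries each, from females 8 to 12 weeks old on day 4, with day 1 set by the vaginal plug. Cells of 5 to 10 uterine horns were pooled, digested, filtered and kept on plates for a few hours ahead of RNA extraction. The protocol in the labels speaks of WT horns for every sample, while the methods of the study describe such pools for both genotypes. The study calls the replicates biological, and the labels do not say whether each came from its own pool of animals, so p-values measure the spread between these samples. The cKO females carried Pbrm1 fl/fl alleles and PR-IRES-cre, which acts in cells that express the progesterone receptor, epithelium and myometrium included, and not in the stroma alone. The labels name the controls WT, and the study speaks of Pbrm1 fl/fl littermates. For pseudopregnancy the methods name vasectomized ICR males, while the labels give day 4 of pregnancy as the time.

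Total counts ranged from 13253575 to 18338667 per library, and 3 counts correspond to 0.164 to 0.226 CPM (counts scaled to the library total). The 9 genes together took 0.00878% to 0.0263% of the counts. Pbrm1 itself had 1354, 1385 and 1677 normalized counts in WT replicates 1 to 3 and 397, 459 and 451 in the cKO replicates, a mean of 0.296 times the WT level (log2 fold change -1.76, SE 0.13, adjusted p 5.19e-40). Normalized counts are counts divided by the size factor of the library. Stromal markers were abundant in all libraries, with a sum over 14 genes of 113650 to 131242 normalized counts in WT and 87648 to 94218 in Pbrm1 cKO. WT replicate 1 stood apart from the other WT libraries. Its level was 0.442 times their mean for the summed macrophage markers, 0.562 times for the epithelial and 1.15 times for the stromal markers.

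Of the 9 genes, 8 passed the count filter of DESeq2, and 2 of them, C3 and Cfp, were higher in Pbrm1 cKO at an adjusted p under 0.05. Among all 17474 genes tested, 31.1% were called, 15.9% higher and 15.2% lower, and 9.53% were higher by the stricter rule of the study (fold above 1.5, p under 0.01, adjusted p under 0.1), which also passed C3 and Cfp. DESeq2, edgeR and limma voom each called 0 members lower, and with DESeq2 4 members, all with a positive fold change, had an unadjusted p under 0.05. The called 31.1% of all tested genes had such a p as well. The full share at that threshold is not given, so the 4 members are not read as an excess. edgeR called 4 higher, C3, Cfp, Cfb and Serping1, against 11.4% of the 28552 genes it tested. The groups did not overlap for 4 of the 8 genes tested, close to the 48.6% of all tested genes. The median log2 fold change of the 8 was 0.38, and that of all tested genes was -0.00074. Within the set, the DESeq2 calls thus lay in C3 and properdin. C1ra, C1s1, C4b and C2 did not pass the test, C2 with few counts.

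**Figure D1:**
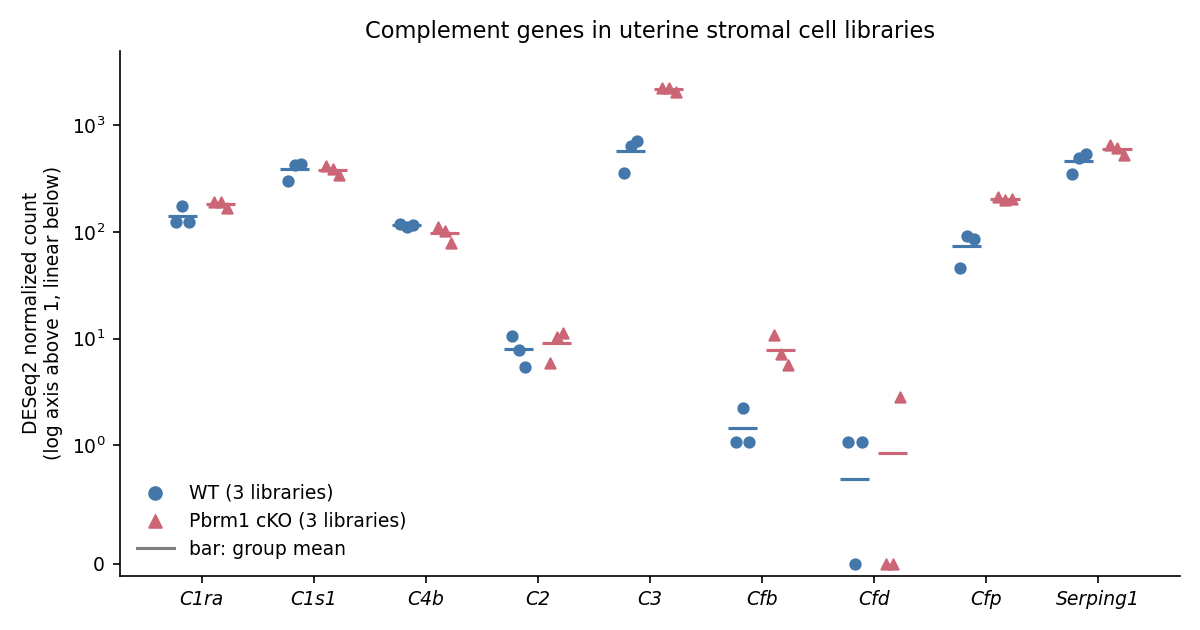
DESeq2 normalized counts of the 9 complement genes in each library, on an axis that is logarithmic above 1 and linear below, with a bar at each group mean (n = 3). C3 and Cfp have all Pbrm1 cKO libraries (triangles) above all WT libraries (circles), while C1ra, C1s1, C2 and Serping1 overlap and Cfd is at or near 0.

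C1r and C1s are the serine proteases that C1q activates, and mouse C1ra and C1s1 lie side by side on opposite strands of chromosome 6. C1ra (ENSMUSG00000055172.10, chr6:124512405-124523443, plus strand) had 123, 175 and 123 normalized counts in WT against 189, 189 and 169 in Pbrm1 cKO. WT replicate 2 reached into the range of the cKO libraries, so the groups overlapped. The mean was 140.5 ± 30.2 for WT against 182.6 ± 11.8 for Pbrm1 cKO (SD, n = 3 each), a fold of 1.30 with a 95% interval of 0.99 to 1.71 (DESeq2 adjusted p 0.147). Without WT replicate 2 the log2 fold change was 0.57 and the adjusted p 0.0297. C1s1 (ENSMUSG00000038521.17, chr6:124530345-124542359, minus strand) had 301, 426 and 436 normalized counts in WT against 414, 386 and 342 in Pbrm1 cKO. The cKO libraries lay inside the WT range. The fold was 0.98 with a 95% interval of 0.78 to 1.24 (adjusted p 0.937), an interval that leaves out a change as large as that of C3 or Cfp.

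Both proteases have a near-identical copy, C1rb and C1s2, and reads that fit both copies were left out of the counts. Of all stretches of 50 bases, the read length, in the annotated transcripts of C1ra, 48.0% also occur in C1rb, and 21.9% of those of C1s1 occur in C1s2. The copies were scarce, and both were lower in Pbrm1 cKO. The counts of C1rb were 4, 9 and 8 in WT against 0, 2 and 0 in Pbrm1 cKO, a ratio of 0.079 with a 95% counting interval of 0.0090 to 0.323 (DESeq2 adjusted p 0.0292). Those of C1s2 were 6, 13 and 18 in WT against 0, 4 and 0 in Pbrm1 cKO, a ratio of 0.090 with a counting interval of 0.0232 to 0.2495 (adjusted p 0.00638). C1rb got no adjusted p from DESeq2 when any library was left out, and C1s2 missed the threshold without WT replicate 3 (adjusted p 0.0795). Reads had no molecular identifiers, and these intervals and limits cover counting error only.

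C4 and C2 are the substrates of C1s, and their products form the C3 convertase of the classical pathway. C4b (ENSMUSG00000073418.4, chr17:34728380-34743882, minus strand) had 119, 112 and 116 normalized counts in WT against 110.5, 101 and 78.8 in Pbrm1 cKO. Every cKO library was below every WT library, but the difference did not pass the test. The means were 115 ± 3.28 and 96.9 ± 16.3 (SD, n = 3 each), a fold of 0.84 with a 95% interval of 0.62 to 1.13 (adjusted p 0.428). Its copy C4a holds 34.6% of the 50-base stretches of C4b and was counted 5 to 11 times per WT library and 5 to 7 times per cKO library (adjusted p 0.762). C2 (ENSMUSG00000024371.14, chr17:34862604-34898265, minus strand) was counted 10, 7 and 5 times in WT and 6, 13 and 12 times in Pbrm1 cKO. The libraries of both groups were interleaved, and the fold of 1.16 had a 95% interval of 0.45 to 2.97 (adjusted p 0.866). At this depth neither a rise nor a fall of C2 by a factor within that interval was detectable.

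C2 counts, and those of Cfb beside it, come from only some of the exons. The predicted gene Gm20547 (chr17:34856412-34882042) runs through both on the same strand, and each of its 3902 exonic bases is also exonic in Cfb (2246 bases) or C2 (1656 bases). That covers 79.5% of the exonic bases of Cfb and 42.8% of those of C2. With the default setting of featureCounts, a read that overlaps exons of more than 1 gene is assigned to none, and Gm20547 had 0 counts in every library. The low counts of C2 and Cfb thus reflect the remaining exons, and their levels per length are lower limits.

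**Figure D2:**
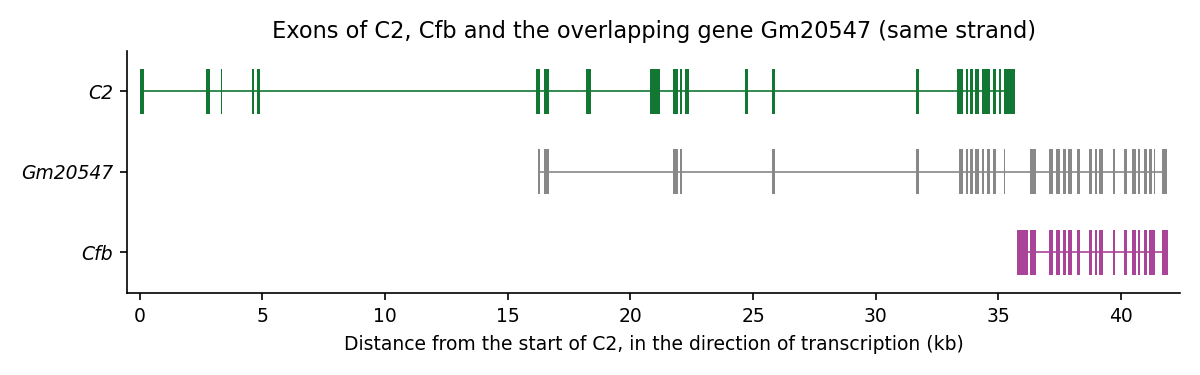
Exons (boxes) of C2, Gm20547 and Cfb, plotted by distance in kb from the start of C2 in the direction of transcription. Every Gm20547 exon lies on exons of C2 or Cfb, and they cover 42.8% of the exonic bases of C2 and 79.5% of those of Cfb.

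C3, the protein on which all pathways converge, had the smallest adjusted p of the set. C3 (ENSMUSG00000024164.15, chr17:57203970-57228136, minus strand) had 354, 638 and 718 normalized counts in WT against 2248, 2228 and 2038 in Pbrm1 cKO. The lowest cKO library was well above the highest WT library. The mean went from 570 ± 191 to 2172 ± 116 (SD, n = 3 each), a fold of 3.81 with a 95% interval of 2.88 to 5.04 (log2 fold change 1.93, SE 0.21, adjusted p 4.15e-19). No 50-base stretch of its transcripts occurs in another gene. WT replicate 1 held 0.522 times the C3 of the other WT libraries, and without it the log2 fold change was 1.68 (adjusted p 1.44e-55).

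The stretch just before the C3 transcription start is shown with that of Cfp because these 2 genes rose. Sequences are from RefSeq (GRCm38.p6), 5′ to 3′ on the strand of the gene. They span chr17:57228137-57228386 for C3 and chrX:20931556-20931805 for Cfp, both on the minus strand, and are the 250 bases that end at the base before the start. Capitals mark matches to the C/EBP-form letters TTNNGNAA on either strand.
C3: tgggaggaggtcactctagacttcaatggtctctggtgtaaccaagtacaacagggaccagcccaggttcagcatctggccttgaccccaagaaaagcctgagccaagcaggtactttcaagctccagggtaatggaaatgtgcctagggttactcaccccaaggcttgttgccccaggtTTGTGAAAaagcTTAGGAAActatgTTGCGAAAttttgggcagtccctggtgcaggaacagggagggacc
Cfp: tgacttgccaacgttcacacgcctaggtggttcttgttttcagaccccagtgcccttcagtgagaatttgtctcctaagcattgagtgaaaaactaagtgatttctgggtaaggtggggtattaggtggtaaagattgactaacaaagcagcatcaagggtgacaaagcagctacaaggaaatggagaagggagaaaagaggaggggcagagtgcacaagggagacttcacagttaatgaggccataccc
The C3 stretch holds 3 such matches, at -70 to -63, -58 to -51 and -45 to -38 from the start, and the Cfp stretch holds none. Among 32851 mouse promoters of this length 36.8% hold at least 1 match and 2.61% hold 3 or more. Neither stretch holds, on either strand, the TATA box TATAAA (12.4% of promoters), the GAS form TTCNNNGAA (7.02%), the PU.1 form GAGGAAGT (2.44%), the ISRE core (2.98%) or the palindromic estrogen response element (0.0639%). Both hold a loose NF-kB form, as do 45.8% of promoters, at places that do not overlap the capitals. C1ra and C1s1, neither of them called, each hold 2 C/EBP-form matches before their outermost RefSeq start. For C1ra that start is at 124512621, whereas the counted gene begins at 124512405. Both C1ra matches thus lie inside the counted gene. Cfd holds none, and C2, C4b, Cfb and Serping1 had no entry. Letters alone do not show that a factor binds.

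Factor B, factor D and properdin make up the alternative pathway, in which factor D cleaves factor B bound to C3b and properdin steadies the resulting enzyme. Cfp, the gene for properdin and the only member on the X chromosome (ENSMUSG00000001128.7, chrX:20925454-20931555, minus strand), had 46.0, 92.1 and 85.4 normalized counts in WT against 212, 199.8 and 201.7 in Pbrm1 cKO. The groups did not overlap, and the cKO libraries lay close together. The mean rose from 74.5 ± 24.9 to 204.5 ± 6.64 (SD, n = 3 each), a fold of 2.75 with a 95% interval of 1.97 to 3.84 (log2 fold change 1.46, SE 0.25, adjusted p 4.97e-08). WT replicate 1 was again low, at 0.518 times the other WT libraries, and without it the log2 fold change was 1.20 (adjusted p 8.72e-08).

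Cfb (ENSMUSG00000090231.10, chr17:34856374-34862518, minus strand) was counted 1, 2 and 1 times in WT and 11, 9 and 6 times in Pbrm1 cKO. Each cKO library held more than any WT library, but the counts were few. The total of 4 against 26 counts gave a ratio of 5.39 after scaling to library size, with a 95% counting interval of 1.87 to 21.2. The DESeq2 adjusted p was 0.0698 and that of edgeR 0.0131, so the call depended on the tool. Cfd (ENSMUSG00000061780.6, chr10:79890853-79892655, plus strand), encoding factor D, a protease made mostly by adipocytes, was counted 1, 0 and 1 times in WT and 0, 0 and 3 times in Pbrm1 cKO. Both groups were at the limit of 3 counts, so no fold is given, and the depth could not show a difference.

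Serping1 encodes the inhibitor of C1r, C1s and the lectin pathway proteases. Serping1 (ENSMUSG00000023224.12, chr2:84765387-84775444, minus strand) had 346, 492 and 540 normalized counts in WT against 657, 612 and 524.5 in Pbrm1 cKO. The lowest cKO library lay below the highest WT library. The means were 459 ± 101 and 598 ± 67.4 (SD, n = 3 each), a fold of 1.30 with a 95% interval of 1.02 to 1.65 before adjustment. The DESeq2 adjusted p was 0.0882, against 0.0207 with edgeR. Without WT replicate 3 the log2 fold change was 0.51 (adjusted p 0.0168), and without WT replicate 1 it was 0.21 (adjusted p 0.2495).

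Levels of different genes were compared as normalized counts per kb of exon. Reads that fit a copy elsewhere in the genome were left out of the counts, but the whole exonic length was used. The levels of C1ra (50.8% of 50-base stretches also in C1rb or the pseudogene Gm18840), C1s1 (21.9% in C1s2) and C4b (34.6% in C4a) are therefore lower limits, as are those of C2 and Cfb for the overlap given above, and their places against C3, Cfp and Serping1, whose stretches occur in no other gene, are not settled. In WT the order was Serping1 at 197.6 ± 43.4, C1s1 at 123.9 ± 23.9, C3 at 110.8 ± 37.2, C1ra at 47.1 ± 10.1, Cfp at 42.9 ± 14.4 and C4b at 20.3 ± 0.576 (SD, n = 3), with C2, Cfd and Cfb at 2.05 or less. Libraries of neighbours in this order overlapped for C1s1 and C3, C1ra and Cfp, and Cfd and Cfb. In Pbrm1 cKO, C3 came first at 422.2 ± 22.6, ahead of Serping1 at 257.1 ± 29.0 and C1s1 at 121.7 ± 11.6. Cfp was at 117.8 ± 3.82, C1ra at 61.2 ± 3.97 and C4b at 17.0 ± 2.87, above Cfb, C2 and Cfd, whose neighbours overlapped. The libraries of Cfp overlapped those of C1s1. On this scale C3 took 20.3% of the summed level of the 9 genes in WT and 42.1% in Pbrm1 cKO, while Serping1 went from 36.2% to 25.6%.

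**Figure D3:**
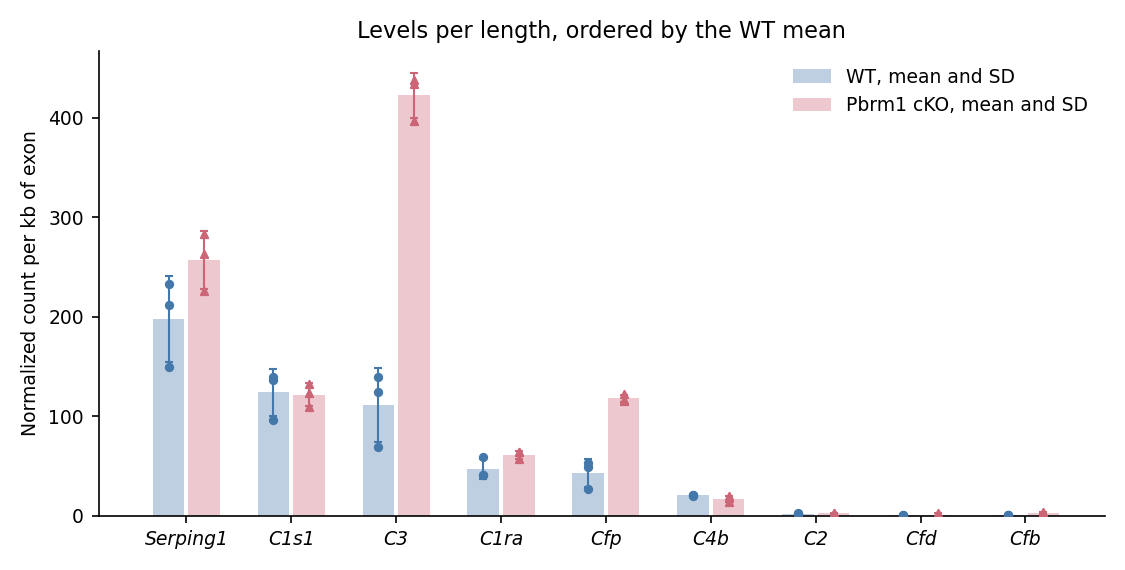
Normalized counts per kb of exon for the 9 genes, ordered by the WT mean, as bars with SD and the 3 libraries of each group as points. C3 goes from 110.8 in WT to 422.2 in Pbrm1 cKO, the highest of the set.

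Ratios within a library do not depend on its scaling. Serping1 per C1s1, the inhibitor over its target on the per kb scale, was 1.55, 1.55 and 1.67 in WT and 2.13, 2.14 and 2.06 in Pbrm1 cKO. The groups did not overlap, and both were tight, at 1.59 ± 0.0696 and 2.11 ± 0.0429 (SD, n = 3 each). C3 per C4b was 3.30, 6.31 and 6.87 in WT and 22.5, 24.3 and 28.6 in Pbrm1 cKO. C3 per Cfp went from 2.59 ± 0.2496 to 3.58 ± 0.177, C3 per Serping1 from 0.5496 ± 0.0765 to 1.65 ± 0.105, and C1s1 per C1ra from 2.67 ± 0.601 to 1.99 ± 0.0849. For each of these 5 ratios a two-sided exact permutation test gave p = 0.1, the smallest that 3 against 3 allows, and 0.12 when adjusted over the 6 ratios computed. Serping1 per C1ra was 4.28 ± 1.17 and 4.19 ± 0.237 (exact permutation p = 1.0).

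Macrophage, leukocyte and MHC class II markers, and some epithelial ones, moved with C3 and Cfp. The summed macrophage markers ranged from 4187 to 9614 normalized counts in WT and from 32995 to 34998 in Pbrm1 cKO, and 12 of 13 tested genes were higher, with Ms4a7 (log2 fold change 2.60) and Csf1r (2.59) leading. The list has 14 genes, 3 of them the C1q subunits, and none was at 0 in every library. All 12 leukocyte markers were higher (sum 1317 to 3028 in WT, 9121 to 9485 in Pbrm1 cKO), led by Vav1 (2.82) and Laptm5 (2.699), as were 5 of 6 tested MHC class II and dendritic cell markers (1313 to 2229 and 13543 to 14392), led by H2-Aa (3.13) and Cd74 (3.05). Neutrophil markers summed to 29.9 to 36.6 and 156 to 168, with Cxcr2 and Elane at 0. Of 9 such genes 3 were tested and 2 were higher, and Csf3r (3.16) alone held a mean of 122.7 of that sum in Pbrm1 cKO, while Ly6g and Camp were at the floor of 3 counts. T and NK cell markers summed to 19.5 to 25.5 and 52.5 to 67.1, with 1 of 5 tested genes, Cd3g, higher. Epithelial markers summed to 2036 to 3720 and 4031 to 4200, with 5 of 16 tested genes higher. Among these were Krt19, a keratin (1.38), and Ltf, lactotransferrin, an estrogen-responsive epithelial gene like C3, at 44.1 ± 23.0 for WT and 313.9 ± 10.9 for Pbrm1 cKO (SD, n = 3 each; log2 fold change 2.84, adjusted p 5.07e-23). Of 14 stromal markers 8 were lower and 1 higher, with Col3a1 (-2.17) and Thy1 (-1.21) the most changed.

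These libraries are bulk samples, in which more cells of a type and more RNA per cell cannot be told apart. The part of macrophages, other leukocytes or epithelium in the rise of C3 and Cfp was not tested. WT replicate 1 was the lowest WT library for C3 and Cfp and also for several marker sums, of leukocytes and of other cells. It held 0.522 and 0.518 times the C3 and Cfp of the other WT libraries, 0.356 times their C1q, 0.454 times their leukocyte marker sum, and 0.562, 0.352 and 0.190 times their epithelial, endothelial and mesothelial sums. Serping1 (0.671) and C1s1 (0.70) were lower there by less, and C4b was not (1.04). Over the 6 libraries the gene whose log2 level correlated most with C3 was Laptm5 (Pearson r = 0.9994), a leukocyte gene, and for Cfp it was H2-K1 (0.9997). These values describe 6 libraries that fall into 2 groups, and 1463 and 1201 of the 10418 genes compared had r above 0.9.

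**Figure D4:**
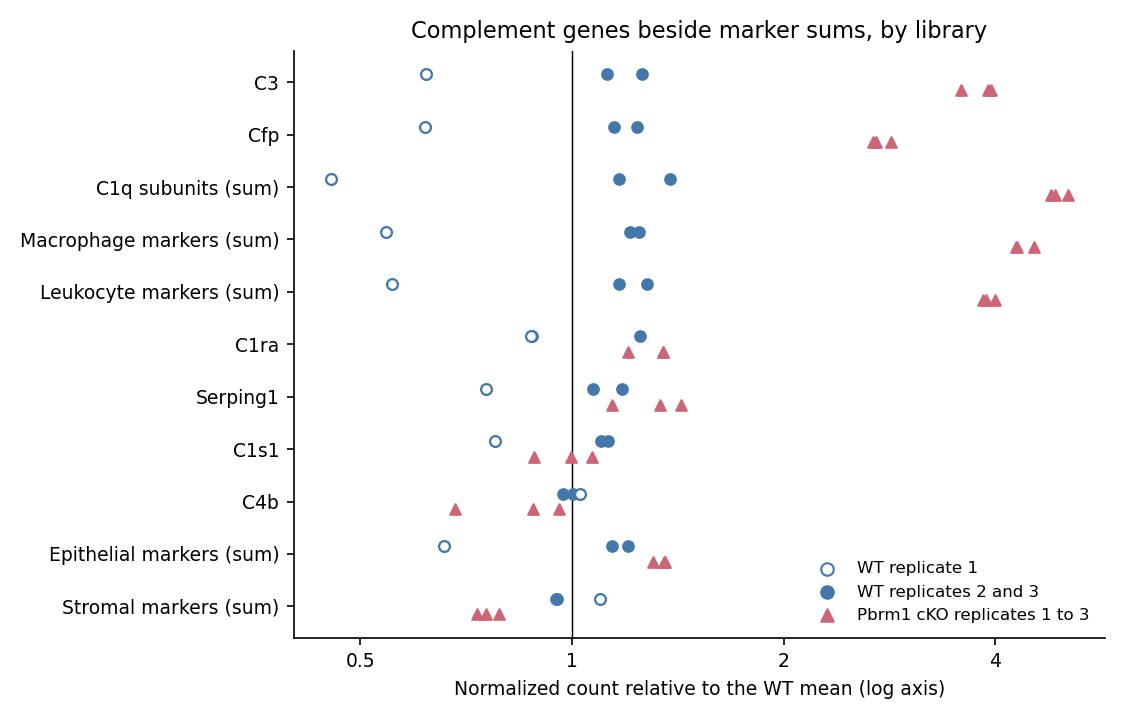
Normalized counts of 6 complement genes and of marker sums in each library, divided by the WT mean, on a log axis (circles, WT; open circle, WT replicate 1; triangles, Pbrm1 cKO). C3, Cfp, C1q and the macrophage, leukocyte and epithelial sums share a low WT replicate 1 and cKO libraries above all WT libraries. C1s1 has a low WT replicate 1 without the rise, and C4b has neither.

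Interferons and acute phase cytokines are known inducers of several complement genes, and lists of genes that respond to them were counted as well. Of 22 interferon genes 15 were higher, with sums of 9450 to 13140 in WT and 16380 to 17929 in Pbrm1 cKO, led by Cxcl10 (2.38) and Mx1 (1.83). Of 15 tested acute phase and cytokine genes 7 were higher and 2 lower. Saa3, a serum amyloid A of inflamed tissue and macrophages, went from 32.0 ± 20.4 to 138 ± 24.4 normalized counts (log2 fold change 2.11, adjusted p 1.87e-06), while Cebpd, a C/EBP transcription factor, fell from 208.6 ± 35.0 to 77.6 ± 6.61 (log2 fold change -1.43, adjusted p 1.75e-10; SD, n = 3 each).

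Among 50 other genes of the complement system, 34 were tested, 14 were higher and 3 lower, with a median log2 fold change of 0.46, and 0.46 too over the 28 with neither group at the floor. C1q, the recognition unit of the classical pathway, rose in all 3 subunits. C1qa went from 349 ± 151 to 1582 ± 58.1 normalized counts (log2 fold change 2.18, adjusted p 6.70e-07), C1qb from 371 ± 200 to 1948 ± 74.4 (2.39, 5.24e-05) and C1qc from 252 ± 124 to 1239 ± 49.9 (2.30, 1.60e-06; SD, n = 3 each). C1ra and C1s1, the proteases that act with C1q, did not pass the test, as given above. In the lectin pathway, Masp1, a protease, was higher (176 ± 47.1 to 255 ± 18.5, adjusted p 0.0296), and this call was lost when any library other than WT replicate 1 was left out (adjusted p 0.0673 to 0.165). Colec12, a scavenger receptor collectin, was lower at 2040 ± 398 and 1287 ± 39.7 (-0.67, adjusted p 2.85e-05).

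Among the regulators, Clu, clusterin, had 439, 1829 and 1741 normalized counts in WT against 1346, 1484 and 1305 in Pbrm1 cKO (adjusted p 0.968). WT replicate 1 decided that value, since without it the log2 fold change of Clu was -0.37 (adjusted p 0.000885). Of the membrane regulators that shield host cells, 0 of 7 tested were called by DESeq2, 0 of 8 by edgeR and 0 of 4 by limma voom. In these tools 1, 2 and 1 had an unadjusted p under 0.05. DESeq2 called 31.1% of all genes it tested, and some of these regulators had few counts. Of the terminal components that form the lytic pore, 0 of 3 tested were called by DESeq2, with 0 at an unadjusted p under 0.05, and 0 of 6 by edgeR, with 1 at an unadjusted p under 0.05, and none had more than 11 counts in a library.

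Receptors for complement fragments, carried mostly by myeloid cells, rose in 7 of 9 tested genes. C3ar1, the receptor of C3a, went from 310 ± 120 to 1462 ± 190 normalized counts (log2 fold change 2.24, adjusted p 1.70e-21), and C5ar1 from 151 ± 43.0 to 625 ± 48.8 (2.05, 1.17e-23; SD, n = 3 each). The integrin chains of complement receptors, Itgam (2.14), Itgax (3.88) and Itgb2 (2.43), were also higher. Cd93 (0.19, adjusted p 0.814) and C1qbp (0.38, adjusted p 0.533) were not called, and C1qbp had a log2 fold change of 0.86 without WT replicate 3 (adjusted p 1.99e-12).

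**Figure D5:**
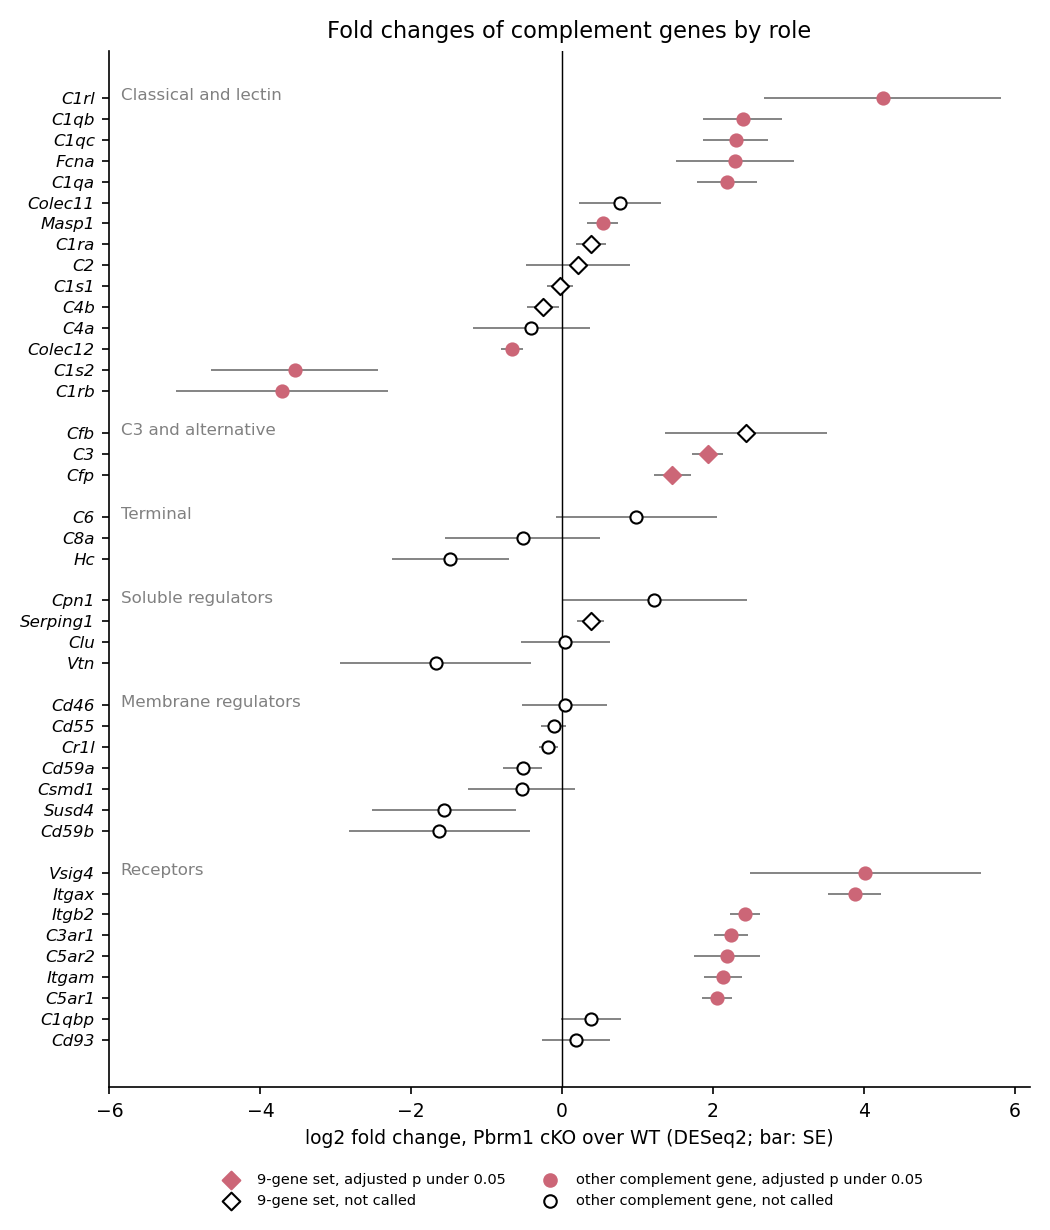
DESeq2 log2 fold changes (Pbrm1 cKO over WT) with SE for tested complement genes, grouped by role (diamonds, the 9-gene set; circles, other complement genes; filled, adjusted p under 0.05). C3, Cfp, C1q and the 9 tested receptors, 7 of them called, lie to the right of 0. So does Cfb at 2.44, which was not called and had few counts. The classical members C1ra, C2, C1s1 and C4b lie between -0.25 and 0.38. Wide bars belong to genes of few counts such as C1rl and Vsig4.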

How the data were processed

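Single-end reads of 50 bases were trimmed by the authors (cutadapt), aligned to GRCm38 (HISAT2) and counted per gene of GENCODE mouse release 18 (featureCounts 1.6.4, reverse-stranded). The deposited table gives raw counts per gene and library, with replicates apart and no normalization, and an exonic length per gene (another unit, in bases, deposited with the counts). Reads that mapped to several places or overlapped exons of several genes were left out by that program's defaults. Per the labels the kit primed total RNA with random and poly(T) primers and depleted unwanted transcripts, whereas the methods describe purified mRNA, so the RNA classes captured are not settled. Symbols were found for 54079 of 54232 identifiers (99.7%), and transcript sequences were from GENCODE release 21.

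Groups followed the sample titles. All 28552 genes with a count were fitted with DESeq2 1.42.0 under R 4.3.3 (size factors by median of ratios, Wald test, all 6 samples, no covariates, unshrunken log2 fold changes, Benjamini-Hochberg adjustment over the genes left by independent filtering, threshold 0.05), and adjusted p-values are from this fit unless another tool is named. A group was at the floor where none of its libraries had over 3 counts. Counting intervals are exact (Clopper-Pearson, 95%) for the split of the summed counts. The alternatives were edgeR 4.0.16, limma 3.58.1 voom, TMM scaling, other filters and call rules, a replicate block, leaving out each library, and transcript length. The script was tested on simulated counts.

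The members and gene lists were chosen with earlier results of these data known. Named besides the members and Pbrm1 are the C1q subunits, other complement genes that were called with 50 or more normalized counts on average or not called with 1000 or more, at most the 2 most changed called genes of each marker list with a mean of at least 50, the gene most correlated with a member, and genes that overlap or copy a member. Another gene that fits is neither reported nor plotted. Marker genes at the floor or at 0, Cd3g, Cr1l and genes shown only in the plot of fold changes (such as C1rl and Vsig4) fall outside this rule and were named after their values were seen.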

Additional observations from a re-analysis of the deposited data

How the results depend on the processing

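C3 and Cfp were called under all 14 alternatives, with log2 fold changes of 1.68 to 2.13 and 1.20 to 1.64. C4b stayed uncalled with values of -0.349 to -0.121. With edgeR 4 members were called higher, as Cfb (log2 fold change 2.351) and Serping1 (0.392) passed, and Cfb had a value in only 7 alternatives, being filtered out of the others. Leaving out a library in turn, the count of members called was 2 to 3, and the log2 fold change ranged from 0.29 to 0.566 for C1ra, from -0.179 to 0.064 for C1s1, from -0.006 to 0.486 for C2 and from 0.211 to 0.51 for Serping1. Cfb had a value only without WT replicate 1 (2.257) and without WT replicate 3 (2.262), uncalled in both, and was filtered out in the other 4 cases. C1s1 changed sign without Pbrm1 cKO replicate 3 (0.05), WT replicate 2 (0.044) or WT replicate 3 (0.064), and C2 without WT replicate 3 (-0.006), each uncalled. The cause of these shifts was not tested.

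Under the study's call rule (fold above 1.5, p under 0.01, adjusted p under 0.1) 1665 genes were higher and 1452 lower, and in a test against a log2 fold change of 0.58 these were 699 and 563, against 2774 and 2658. Other complement genes called lower went from 3 to 1 with filterByExpr, with limma voom and with the replicate block, and to 0 in the test against 0.58, and were 1 to 4 when a library was left out. Without WT replicate 1 these included Clu and Cr1l (log2 fold change -0.284, adjusted p 0.0275). With the length of the longest transcript, the per kb level was 3.012 in WT and 3.479 in Pbrm1 cKO for C2, 21.47 in WT for C4b, 125 in Pbrm1 cKO for Cfp, and 259.9 and 338.2 for Serping1, and the order was kept under that length except that C2 came above Cfb (2.868) in Pbrm1 cKO.

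Replicate numbers were not treated as pairs in the main fit. Deviations of same-numbered libraries from their group means correlated at 0.114, -0.0515 and 0.0028. With 3 libraries per group these values cannot settle whether the samples were paired. With the replicate block, log2 fold changes were 1.984 for C3, 1.501 for Cfp, 0.393 for C1ra, 0.396 for Serping1, -0.264 for C4b, -0.013 for C1s1 and 0.212 for C2, with 2 members called higher and 0 lower, and calls over all genes were 2175 higher and 1828 lower. Counts per library stayed at 13 or fewer for Cfd, Cfb and C2. Few counts limit all 3, and those of Cfb and C2 leave out the exons shared with Gm20547.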

Other observations

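Spread differed between the groups. Estimated by edgeR within each group, the biological coefficient of variation was 0.169 for WT and 0.0481 for Pbrm1 cKO. The gene most correlated with each remaining member of 50 or more normalized counts on average was, over the 6 libraries, Tmx2 for Serping1 (Pearson r = 0.9987), Ubn2 for C1ra (0.9903), N4bp3 for C1s1 (0.9895) and Cltc for C4b (0.9922). The number of genes with r above 0.9 was 252, 117, 41 and 40 for these members, of 10418 compared. For the members of few counts it was Nt5m for C2 (0.9937), Ly6e for Cfb (0.996) and Exosc4 for Cfd (0.9586), with 12, 1172 and 6 of 10419 genes above 0.9.

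The summed per kb level of the 9 genes was 407, 606.2 and 625.1 across the WT libraries and 1063, 1021 and 926.1 across the Pbrm1 cKO libraries. Endothelial markers summed to 1813 to 5510 normalized counts in WT and 1847 to 2041 in Pbrm1 cKO, with WT replicate 1 at 0.352 times the other WT libraries. The most changed of those called were Emcn, lower with a log2 fold change of -2.02, and Vwf, higher at 1.90. Smooth muscle markers summed to 56817 to 61752 and 53910 to 55927, with Mylk (-2.04) and Synpo2 (-1.51) the most changed of those called. Mesothelial markers summed to 8.55 to 45.5 and 52.5 to 63.1, and adipocyte markers to 68.4 to 179 and 109 to 139. Cebpb, a C/EBP factor of the acute phase list, was named after its values were seen, with 664 ± 67.5 normalized counts for WT and 574 ± 66.0 for Pbrm1 cKO (SD, n = 3 each, DESeq2 adjusted p 0.263).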
